A study of Mus musculus with 12 samples.

Results

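The genes described here run the first decision of the cell division cycle. They are the D-type cyclins Ccnd2 and Ccnd3, the E-type cyclin Ccne1, the cyclin-dependent kinases Cdk4 and Cdk6, the kinase inhibitors Cdkn1a (p21), Cdkn1b (p27), Cdkn2c (p18) and Cdkn2d (p19), and the retinoblastoma gene Rb1. They were chosen by name, as 10 of the 40840 gene symbols listed in the count data, and all 10 passed the count filter that left 13570 genes for testing. All were measured by RNA-seq in OVA-specific CD4+ T cells (OTII, from C57BL/6 donors with a transgenic T-cell receptor). These cells had been transferred into WT (B6) or Il6-/- (B6.129S2-IL-6tm1Kopf/J) mice. Every recipient was sensitized intranasally with house dust mite extract that contained LPS, together with ovalbumin, so no group was left unsensitized. The donor cells were sorted as B220-, CD4+, CD44hi and CD45.1+ cells from the mediastinal lymph nodes, with 3 libraries for each of 4 groups: WT Day 3, Il6-/- Day 3, WT Day 5 and Il6-/- Day 5. The sample labels name blood as the tissue whereas the design text names the lymph nodes, and that text counts days from 1 rather than from 0. The genotype is that of the recipient: the donor cells had an intact Il6 gene in every group. Ages, and whether each library came from 1 mouse or several, were not given in the sources used here, so the p-values measure the spread between these libraries, which may be technical.

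A resting T cell is held before S phase because the retinoblastoma protein keeps E2F transcription factors inactive. After antigen and cytokine signals, D-type cyclins bind Cdk4 or Cdk6 and start to phosphorylate the retinoblastoma protein, and cyclin E with Cdk2 completes the step. The INK4 inhibitors (Cdkn2c and Cdkn2d) bind Cdk4 and Cdk6 directly, whereas the CIP/KIP inhibitors (Cdkn1a and Cdkn1b) act on cyclin E-Cdk2 complexes. Cdkn1b is the inhibitor best known for holding resting lymphocytes out of the cycle, and interleukin 2 is a well-known signal for cyclin D induction in T cells.

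The 12 libraries held 16125947 to 26111657 reads on genes, and the gene-assigned share of reads was 60.2% to 62.2% on Day 3 and 52.5% to 56.7% on Day 5. T-cell genes were abundant: Cd3e lay between 592 and 1160 CPM (the depth-scaled read count of a gene, with library sizes adjusted by the TMM method) and Cd4 between 825 and 1350, whereas Cd8a did not exceed 1.7 CPM. Cd8b1, also a CD8 marker, was not low. It lay at 56.3 to 67.7 CPM in WT Day 3 and 64.1 to 84.2 in Il6-/- Day 3. On Day 5 it lay at 56.5 to 71.8 in WT and 61 to 74.2 in Il6-/- libraries. Il6 itself had 0 to 5 counts in each library, which does not check the genotype labels because the sequenced cells were donor cells. The summed level of 7 CD4 T-cell markers, none of which was at 0 in any group, was 3880 to 4390 CPM in WT Day 3, 3550 to 3650 in Il6-/- Day 3, 6860 to 7070 in WT Day 5 and 5840 to 6490 in Il6-/- Day 5. All 7 were higher on Day 5 than on Day 3 in both genotypes, 2 of 7 were lower in Il6-/- recipients on Day 3, and 1 of 7 was lower on Day 5. Sums over 6 myeloid and dendritic markers were 9.17 to 19.7 CPM in WT and 10.9 to 16.6 in Il6-/- Day 3. On Day 5 they were 15.9 to 43.1 and 16.3 to 31.3. Those over 4 lung epithelial markers were 0.494 to 1.48 and 0.475 to 11.2, then 2.44 to 18.4 and 4.66 to 8.95. Those over 5 B-cell markers were 5.19 to 8.36 and 6.36 to 8.1, then 6.92 to 9.73 and 9.79 to 10.5. Of 4 tested myeloid genes, 1 was called higher on Day 5 in WT and 2 in Il6-/- recipients. Sums over 5 CD8 T and NK markers lay between 62.4 and 112 CPM. Within the last list Klrb1c, an NK-cell receptor gene, lay at 3.75 to 5.58 CPM in WT Day 3 and 18.2 to 26.4 in Il6-/- Day 3, and at 30.4 to 36.5 and 19.2 to 23.3 on Day 5. The sum of Foxp3 and Ikzf2, markers of regulatory T cells, was 73.8 to 82.5 CPM in WT Day 3 against 50.5 to 63 CPM in Il6-/- Day 3, and 97.9 to 116 against 85.5 to 103 on Day 5. Most of it was Ikzf2: Foxp3 lay at 6.08 to 10.1 CPM in WT Day 3 and 3.92 to 5.81 in Il6-/- Day 3, and at 1.92 to 4.63 and 3.44 to 6.62 on Day 5. The part of these marker levels in the results that follow was not tested, and in such bulk libraries fewer cells in a given state and less RNA per cell cannot be told apart.

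The stretches upstream of Cdk4 and Cdk6 are shown because these kinases share a function but differ in how often 1 motif occurs, and that of Cdkn2d because this gene gave the largest genotype difference among the called members. Each line holds the 250 bases before the RefSeq start site (assembly GRCm38.p6), 5′ to 3′ on the strand of the gene, with CACGTG, the E-box letters that MYC and related factors can bind, in capitals. The positions are chr10:127063285-127063534 on the plus strand for Cdk4, chr5:3343643-3343892 on the plus strand for Cdk6 and chr9:21291210-21291459 on the minus strand for Cdkn2d.
Cdk4: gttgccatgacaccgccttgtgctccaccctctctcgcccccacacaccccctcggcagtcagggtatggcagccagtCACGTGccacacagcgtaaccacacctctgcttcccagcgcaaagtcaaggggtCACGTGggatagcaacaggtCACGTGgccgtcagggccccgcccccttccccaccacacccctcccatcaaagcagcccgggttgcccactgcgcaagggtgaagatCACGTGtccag
Cdk6: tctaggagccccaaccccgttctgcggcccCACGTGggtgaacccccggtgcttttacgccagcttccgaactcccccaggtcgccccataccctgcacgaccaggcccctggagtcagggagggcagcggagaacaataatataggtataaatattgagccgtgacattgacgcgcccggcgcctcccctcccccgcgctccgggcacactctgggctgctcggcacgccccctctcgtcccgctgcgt
Cdkn2d: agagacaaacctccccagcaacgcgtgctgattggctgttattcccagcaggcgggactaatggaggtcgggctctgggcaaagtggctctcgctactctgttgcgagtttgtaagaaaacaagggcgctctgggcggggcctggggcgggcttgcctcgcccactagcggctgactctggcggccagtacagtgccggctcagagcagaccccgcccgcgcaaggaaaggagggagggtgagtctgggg

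The Cdk4 stretch held CACGTG 4 times, beginning 172, 118, 98 and 11 bases before the start site, and the Cdk6 stretch held it once, beginning 220 bases before. Over 32851 RefSeq windows of 300 bases (250 before to 50 after a start site), 7.15% held CACGTG at least once and 0.024% held it 4 or more times. The limit of 4 equals the Cdk4 count, and Cdk4 is shown for that count, so the latter share is a description and not a test. The search covered 11 windows of 8 members on both strands, and CACGTG reads the same on both. Beyond those in Cdk4 and Cdk6, the matches were 1 CACGTG in Cdkn2c, after the start site, and 1 TGTTTAC, the letters of a forkhead (FOXO) motif, in Ccnd3. TGTTTAC was in 3.65% of all windows, TTCNNNGAA (STAT) in 8.3%, and TTTGGCGC or TTTCGCGC (E2F) in 0.813%. The latter 3 spellings had no match in these member windows, which says only that the letters are not there. Ccnd2 and Rb1 had no entry.

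The plot of CPM by library shows each member in the 4 groups. Seen over all 10, the change between days was much larger than the difference between recipients: the median absolute log2 change from Day 3 to Day 5 was 1.61 in WT and 1.43 in Il6-/- recipients, beside 0.55 and 0.62 over all genes tested, and the median absolute genotype difference was 0.38 on Day 3 and 0.20 on Day 5, beside 0.22 and 0.19.

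**Figure D1:**
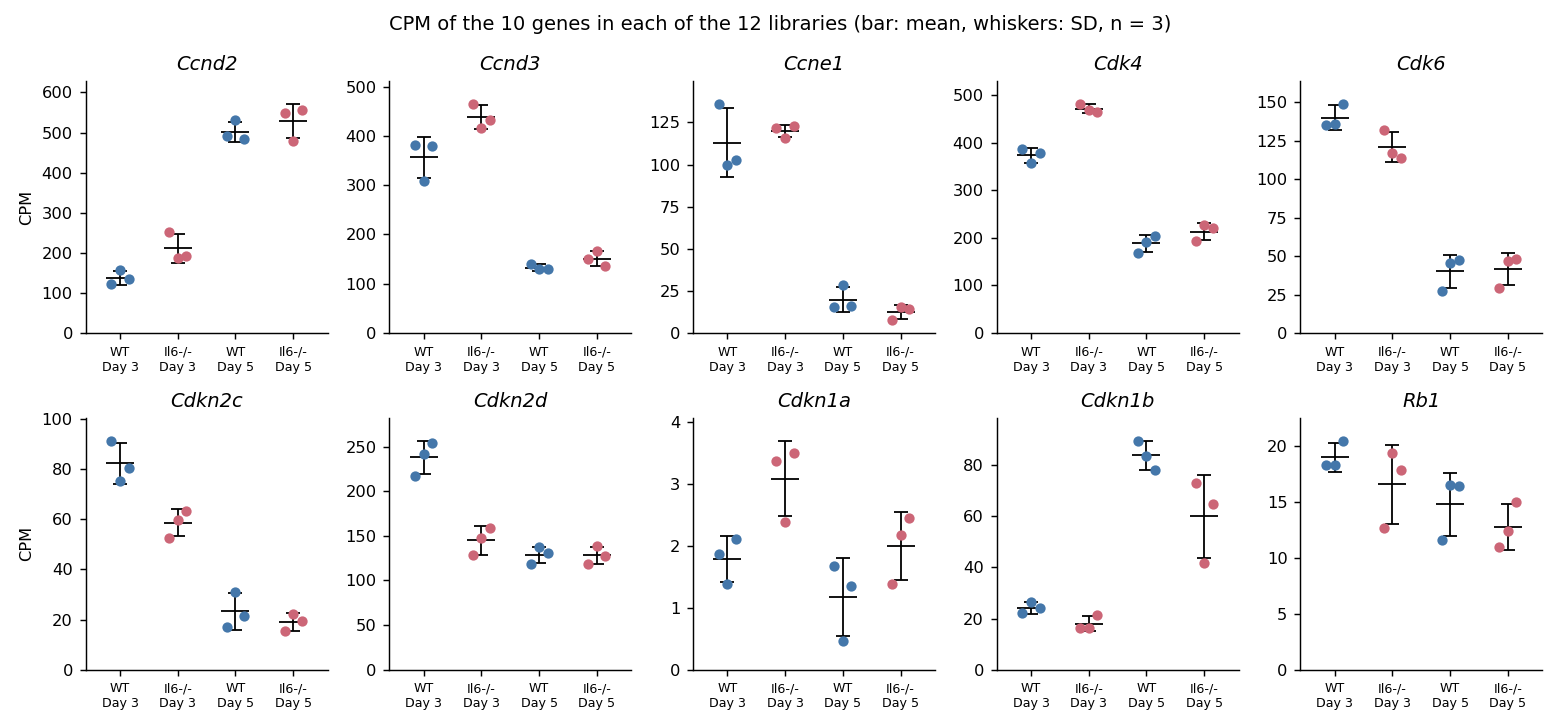
CPM (vertical axes, each from 0) of the 10 genes in the 12 libraries; points are libraries, blue for WT and red for Il6-/- recipients, the bar is the mean and whiskers are the SD of 3 libraries. Ccnd2 and Cdkn1b are higher on Day 5 than on Day 3, Ccne1, Cdk6, Ccnd3, Cdk4 and Cdkn2c are lower, and Cdkn2d is high in the 3 WT Day 3 libraries alone, at 217 to 254 CPM.

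Whether recipients without IL-6 changed these genes on Day 3 was asked with edgeR's quasi-likelihood test, adjusted over all 13570 genes. Of the 10 members, 4 passed an adjusted p of 0.05, against a background of 13.7% of all genes: Ccnd2, Cdk4 and Ccnd3 were higher in Il6-/- recipients (background 7.52% higher) and Cdkn2d was lower (background 6.19% lower). None of the 4 changed by as much as 2-fold. The CPM of the 3 WT and the 3 Il6-/- libraries did not overlap for 8 of 10 members, all but Ccne1 and Rb1, beside 36.2% of all genes. Over all genes 54.9% of the Day 3 calls were higher in Il6-/- recipients, a share that was 44.8% with upper-quartile scaling and 39.3% with library size alone.

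On Day 5 the same test called 0 of 10 members in either direction, against a background of 4.61% (1.27% higher, 3.35% lower). At an unadjusted p under 0.05 there were 3 members (Ccne1, Cdk4 and Cdkn1b), and DESeq2 and limma-voom each called 0. Such p-values were common over all genes: Cdk4, at an edgeR p of 0.041, ranked 2469 of 13570 genes. Same-numbered Day 5 libraries deviated together, though only these data, and no source, pair them. With the replicate number as a block 2 members were called, Ccne1 and Cdkn1b, both lower in Il6-/- recipients. The blocked background was 11.7% (5.43% higher, 6.3% lower). Only Cdkn1b had libraries that did not overlap on Day 5, 1 of 10 members beside 19.6% of all genes. Over all genes, library size alone moved the share of Day 5 calls that were higher from 27.5% to 40.8%.

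The difference between these differences, Day 3 minus Day 5, passed the test for 1 of 10 members, Cdkn2d, against a background of 4.92%. For the other 9 it did not, so a call on Day 3 without one on Day 5 is not by itself a difference between days. Ccnd2 came nearest, with a difference of 0.53 ± 0.16 (log2, SE), 95% interval 0.22 to 0.85, and an adjusted p of 0.072.

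**Figure D2:**
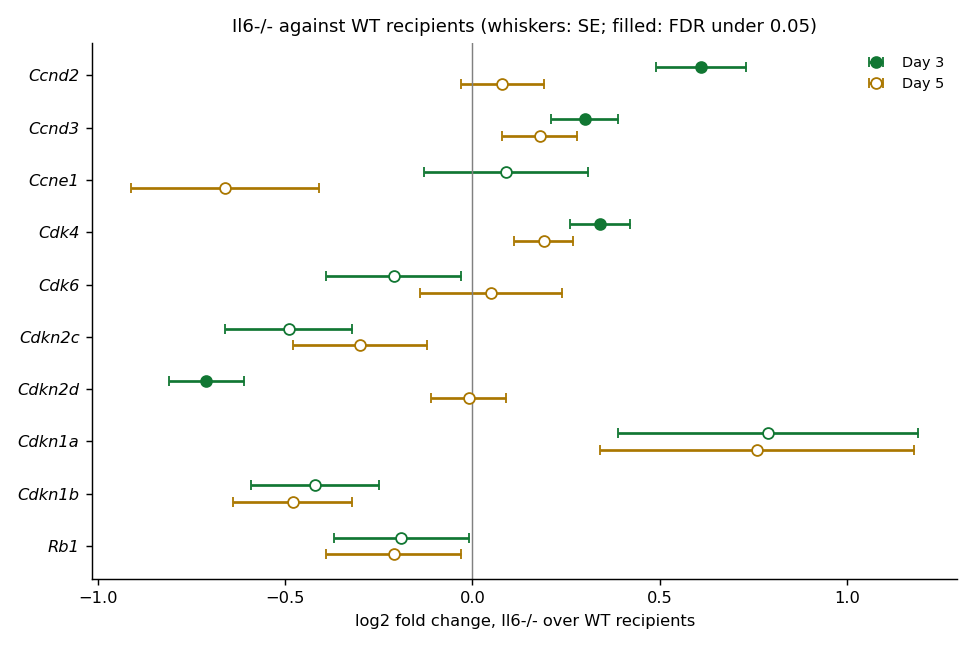
Log2 fold change of Il6-/- over WT recipients (horizontal axis) for each gene on Day 3 (green) and Day 5 (amber), with SE as whiskers and filled points where the edgeR adjusted p was under 0.05. The filled points are Ccnd2 at 0.61, Ccnd3 at 0.30, Cdk4 at 0.34 and Cdkn2d at -0.71, all on Day 3, and Cdkn2d lies at -0.01 on Day 5.

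From Day 3 to Day 5 in WT recipients 8 of 10 members changed, against a background of 56.7%: 2 were higher (background 29.5%) and 6 were lower (background 27.1%). Of the 8, 6 changed by at least 2-fold, beside 22.1% of all genes. In Il6-/- recipients 7 of 10 changed, against 60.5%, with 2 higher (background 30.4%) and 5 lower (background 30.1%), and all 7 by at least 2-fold, beside 25.9%. The counts of calls in either direction thus lay near the background in both genotypes. The WT and Il6-/- day changes have no library in common, but each shares its libraries with both genotype comparisons. Over all genes the share of day calls that were higher was 52.1% in WT and 50.2% in Il6-/- recipients, and 66.5% and 65% with upper-quartile scaling.

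**Figure D3:**
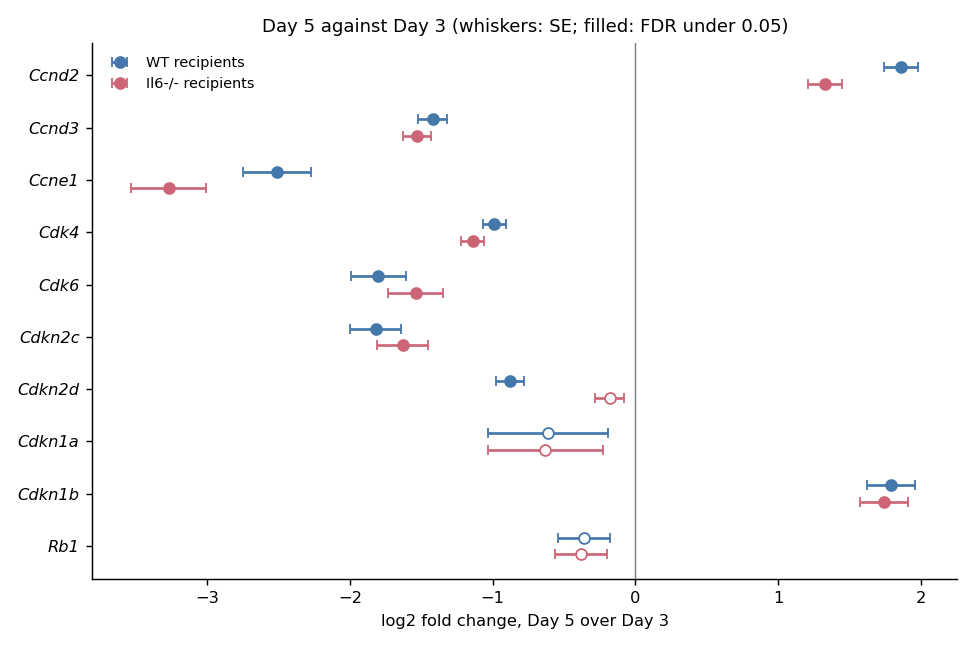
Log2 fold change of Day 5 over Day 3 (horizontal axis) for each gene in WT (blue) and Il6-/- recipients (red), with SE as whiskers and filled points where the edgeR adjusted p was under 0.05. Ccnd2 and Cdkn1b lie to the right of 0, at 1.33 to 1.86, and Ccne1 lies farthest to the left, at -2.51 and -3.27.

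Ccnd2, cyclin D2 (chr6:127102125-127129156, minus strand, GRCm39), the D-type cyclin long tied to cytokine signals in lymphocytes, was the member with the clearest rise in Il6-/- recipients on Day 3. Its libraries stood at 123, 157 and 134 CPM in WT Day 3 and at 252, 187 and 193 CPM in Il6-/- Day 3. Every Il6-/- library lay above every WT library, with 1 of them higher than the other 2. The difference was 1.52-fold (log2 0.61 ± 0.12 SE, adjusted p = 0.0027). On Day 5 the WT libraries held 491, 531 and 485 CPM and the Il6-/- libraries 550, 480 and 557 CPM. These ranges overlapped, and the log2 difference was 0.08 (95% interval -0.15 to 0.30, adjusted p = 0.78). Between days Ccnd2 rose 3.63-fold in WT (log2 1.86 ± 0.12, adjusted p = 2.5e-08) and 2.51-fold in Il6-/- recipients (log2 1.33 ± 0.12, adjusted p = 1.7e-07).

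Ccnd3, cyclin D3 (chr17:47815767-47910624, plus strand), the other D-type cyclin of lymphocytes, moved the opposite way with time. It stood at 382, 309 and 379 CPM in WT Day 3 and at 465, 417 and 432 CPM in Il6-/- Day 3, so the groups did not overlap and WT replicate 2 was the lowest. The Day 3 difference was small, 1.23-fold (log2 0.30 ± 0.09), and its adjusted p of 0.049 sat at the threshold. The call was lost when any of 8 of the 12 libraries was left out (WT Day 3 replicate 2 or 3, any Il6-/- Day 3 library, or any WT Day 5 library), with a value of 0.20 and an adjusted p of 0.24 without WT Day 3 replicate 2. It was also lost with RLE, upper-quartile or library-size scaling (adjusted p = 0.05, 0.072 and 0.11). On Day 5 Ccnd3 held 141, 129 and 129 CPM in WT and 151, 166 and 137 CPM in Il6-/- libraries, overlapping ranges with a log2 difference of 0.18 (adjusted p = 0.3). From Day 3 to Day 5 it fell by 1.42 on the log2 scale in WT (adjusted p = 3.3e-08) and by 1.53 in Il6-/- recipients (adjusted p = 1.4e-08).

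The D-type cyclins changed places between the days. Per kilobase of exon (RPKM, from the union of annotated exons, which is longer than a single transcript), Ccnd2 made up 27.7% ± 4.96 (SD, n = 3) of the sum of Ccnd2 and Ccnd3 in WT Day 3 and 31.9% ± 2.44 in Il6-/- Day 3. On Day 5 this share was 78.7% ± 1.42 in WT and 77.4% ± 3.09 in Il6-/- libraries. The sum itself moved less, from 53.3 ± 2.77 RPKM in WT Day 3 to 67.8 ± 2.39 in WT Day 5, with 69.8 ± 6.47 in Il6-/- Day 3 and 72.6 ± 3.11 in Il6-/- Day 5. The third D-type cyclin, Ccnd1, was barely detected, with 6 to 20 counts a library.

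Ccne1, cyclin E1 (chr7:37797404-37808264, minus strand), the partner of Cdk2 at the entry to S phase, fell furthest with time. In WT libraries it stood at 136, 99.6 and 103 CPM on Day 3 and at 15.2, 28.6 and 15.8 CPM on Day 5. In Il6-/- libraries it stood at 122, 116 and 123 CPM on Day 3 and at 7.57, 15.7 and 14.4 CPM on Day 5. The fall was 5.71-fold in WT (log2 -2.51 ± 0.24, adjusted p = 5.8e-07) and 9.62-fold in Il6-/- recipients (log2 -3.27 ± 0.26, adjusted p = 6.3e-08). On Day 3 the genotypes overlapped (log2 0.09, 95% interval -0.35 to 0.53, adjusted p = 0.85). On Day 5 WT replicate 2 was the highest and Il6-/- replicate 1 the lowest, the ranges overlapped, and the log2 difference of -0.66 ± 0.25 had an adjusted p of 0.15, or 0.011 with the replicate block. It was not called in any of the 12 unblocked fits that left out 1 library, where it ran from -0.82 to -0.31 and was smallest without WT Day 5 replicate 2 (-0.31, adjusted p = 0.54) and without Il6-/- Day 5 replicate 1 (-0.40, adjusted p = 0.32). The change of the genotype difference between days was 0.75 ± 0.34 with an adjusted p of 0.22, or 0.021 with the block.

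Cdk4 (chr10:126895180-126903789, plus strand), the main D-type cyclin kinase of these cells by level, was higher in Il6-/- recipients on Day 3. Its libraries held 386, 356 and 378 CPM in WT Day 3 and 481, 468 and 464 CPM in Il6-/- Day 3, a narrow spread within each group and no overlap between them. The difference was 1.26-fold (log2 0.34 ± 0.08, adjusted p = 0.014). Without WT Day 3 replicate 2 or without Il6-/- Day 3 replicate 1 the size was 0.30 or 0.32 and the adjusted p was 0.08 or 0.062, so the call rested on each of these libraries. On Day 5 Cdk4 held 167, 192 and 203 CPM in WT and 194, 227 and 220 CPM in Il6-/- libraries, overlapping ranges with a log2 difference of 0.19 ± 0.08 (adjusted p = 0.23). Between days it fell by 0.99 on the log2 scale in WT (adjusted p = 1.7e-07) and by 1.14 in Il6-/- recipients (adjusted p = 4.0e-08). Cdk4 shares 646 bases of exon with Tspan31 on the opposite strand, and the reads were counted without strand, so part of its signal is uncertain.

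Cdk6 (chr5:3391485-3581008, plus strand), the second kinase of the D-type cyclins, did not pass the test between genotypes in the fit of all 12 libraries. It held 135, 136 and 149 CPM in WT Day 3 and 132, 117 and 114 CPM in Il6-/- Day 3. These ranges did not overlap, yet the log2 difference of -0.21 (95% interval -0.56 to 0.14) had an adjusted p of 0.5. Fitted on the 6 Day 3 libraries alone it was -0.24 with an adjusted p of 0.032, the only one of 10 alternatives that called it. On Day 5 the WT libraries held 27.5, 45.3 and 47.4 CPM and the Il6-/- libraries 29.6, 46.9 and 48.2 CPM, with replicate 1 lowest in both groups. The fall between days was 3.49-fold in WT (adjusted p = 1.1e-06) and 2.91-fold in Il6-/- recipients (adjusted p = 4.3e-06). Per kilobase, Cdk4 made up 91.8% ± 0.469 of the sum of Cdk4 and Cdk6 in WT Day 3, 94.2% ± 0.331 in Il6-/- Day 3, 95.2% ± 0.879 in WT Day 5 and 95.6% ± 0.773 in Il6-/- Day 5.

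Cdkn2d, p19INK4d (chr9:21199700-21202727, minus strand), an inhibitor of Cdk4 and Cdk6 whose upstream stretch is printed above, gave the largest called genotype difference among the members. Its libraries held 217, 242 and 254 CPM in WT Day 3 and 128, 148 and 159 CPM in Il6-/- Day 3. All 3 Il6-/- libraries were lower than all 3 WT libraries, by 1.64-fold (log2 -0.71 ± 0.10, 95% interval -0.90 to -0.52, adjusted p = 2.7e-04). On Day 5 both genotypes lay within or below the range of Il6-/- Day 3, with 119, 137 and 131 CPM in WT and 119, 139 and 127 CPM in Il6-/- libraries. The Day 5 ranges coincided and the log2 difference was -0.01 (95% interval -0.20 to 0.18, adjusted p = 0.97). The genotype difference thus differed between days by -0.70 ± 0.14 (adjusted p = 0.011), and this passed in all 9 alternative fits and in all 12 fits that left out 1 library. With time Cdkn2d fell by 0.88 on the log2 scale in WT (adjusted p = 2.1e-06). In Il6-/- recipients its change was -0.18 ± 0.10 (adjusted p = 0.12), which was 0.05 with upper-quartile scaling, -0.37 with a GC-content offset (adjusted p = 0.0059) and -0.27 without Il6-/- Day 3 replicate 1 (adjusted p = 0.036).

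Cdkn2c, p18INK4c (chr4:109517957-109524386, minus strand), the other INK4 inhibitor expressed here, had 91.4, 75.3 and 80.5 CPM in WT Day 3 and 52.7, 59.6 and 63.4 CPM in Il6-/- Day 3. The groups did not overlap. The log2 difference of -0.49 ± 0.17 had an adjusted p of 0.075, under the threshold in 6 of 10 alternative fits (range 5.7e-04 to 0.072), among them DESeq2 (0.042) and limma-voom (0.023). With 1 library left out it was called in 3 of 12 edgeR fits, at -0.55 to -0.41 with an adjusted p of 0.026 to 0.23. On Day 5 it held 17, 31.2 and 21.6 CPM in WT and 15.3, 22.3 and 19.3 CPM in Il6-/- libraries, which overlapped (log2 -0.30, adjusted p = 0.41). Cdkn2c fell 3.54-fold between days in WT (adjusted p = 7.7e-07) and 3.09-fold in Il6-/- recipients (adjusted p = 2.1e-06). The remaining INK4 genes were not testable: Cdkn2a had 0 counts in every library, which allows up to 3 counts of each library's total, and Cdkn2b had 0 to 7.

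Cdkn1b, p27KIP1 (chr6:134897364-134902476, plus strand), was the inhibitor that rose with time. Its WT libraries held 22, 26.5 and 24.2 CPM on Day 3 and 89.6, 83.7 and 78.2 CPM on Day 5. Its Il6-/- libraries held 16.3, 16.4 and 21.3 CPM on Day 3 and 73.1, 41.8 and 65 CPM on Day 5. Every Day 5 library lay above every Day 3 library, with a rise of 3.47-fold in WT (log2 1.79 ± 0.17, adjusted p = 4.6e-07) and 3.33-fold in Il6-/- recipients (log2 1.74 ± 0.17, adjusted p = 5.8e-07). Il6-/- libraries were lower than WT libraries on both days without overlap, but the log2 differences of -0.42 ± 0.17 on Day 3 and -0.48 ± 0.16 on Day 5 had adjusted p of 0.12 and 0.11. The Day 3 difference was called with no filter (adjusted p = 0.0095), with the 6 Day 3 libraries alone (0.025) and without Il6-/- Day 5 replicate 2 (0.018). On Day 5 the blocked difference was -0.51 with an adjusted p of 0.023, and without Il6-/- Day 5 replicate 1, the highest of its group, it was -0.65 with an adjusted p of 0.026. Without Il6-/- Day 5 replicate 2, the lowest at 41.8 CPM, it was -0.25 with an adjusted p of 0.4. The change of this difference between days was 0.06 (95% interval -0.41 to 0.52).

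Cdkn1a, p21CIP1 (chr17:29309936-29319701, plus strand), a p53 target in many cells, had the fewest reads of the members, at 9 to 74 counts a library. It held 1.87, 1.38 and 2.12 CPM in WT Day 3, 3.38, 2.39 and 3.51 in Il6-/- Day 3, 1.68, 0.468 and 1.36 in WT Day 5 and 1.38, 2.17 and 2.45 in Il6-/- Day 5. The Day 3 ranges did not overlap and the Day 5 ranges did. The log2 differences were 0.79 (95% interval 0.00 to 1.57, adjusted p = 0.23) and 0.76 (-0.06 to 1.59, adjusted p = 0.34) and neither passed the test. Its changes with time were -0.61 in WT (adjusted p = 0.23) and -0.63 in Il6-/- recipients (adjusted p = 0.18).

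Rb1 (chr14:73421113-73563507, minus strand), the brake that these kinases act on, passed no comparison. It held 18.3, 18.3 and 20.5 CPM in WT Day 3, 12.7, 19.4 and 17.9 in Il6-/- Day 3, 11.6, 16.5 and 16.4 in WT Day 5 and 11, 12.4 and 15 in Il6-/- Day 5. The genotypes overlapped on both days, with log2 differences of -0.19 (95% interval -0.54 to 0.16) and -0.21 (-0.57 to 0.15). Between days Rb1 gave -0.36 in WT (adjusted p = 0.099) and -0.38 in Il6-/- recipients (adjusted p = 0.085), which became -0.38 (0.03) and -0.37 (0.035) with the replicate block. Its exons share 896 bases with other genes, among them Rcbtb2 and Lpar6 on the opposite strand.

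Compared per kilobase, the order of the genes differed between groups. The order rests on the exon unions, 1662 bases for Cdkn2d and 3440 for Cdk4, which library overlap does not cover. In CPM Cdk4 lay above Cdkn2d in every group, at 373 against 238 in WT Day 3 and 471 against 145 in Il6-/- Day 3. On Day 5 the values were 188 against 129 in WT and 213 against 128 in Il6-/- libraries. In WT Day 3 Cdkn2d stood first at 143 RPKM and Cdk4 second at 108, with no overlap of their libraries, whereas in Il6-/- Day 3 Cdk4 stood first at 137 and Cdkn2d second at 87.2, again without overlap. Ccnd3 (38.6 RPKM) and Ccne1 (31.2) overlapped in WT Day 3, as did Ccnd2 (14.7) and Cdkn2c (13). On Day 5 Cdkn2d was again first in both genotypes (77.6 and 77.1 RPKM), followed by Cdk4 and Ccnd2, which overlapped each other in both. Lower down on Day 5 Ccne1 overlapped Cdkn2c and Cdkn2c overlapped Cdk6 in both genotypes, and Rb1 (1.06 to 1.58 RPKM) and Cdkn1a (0.194 to 0.511 RPKM) were last in every group.

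**Figure D4:**
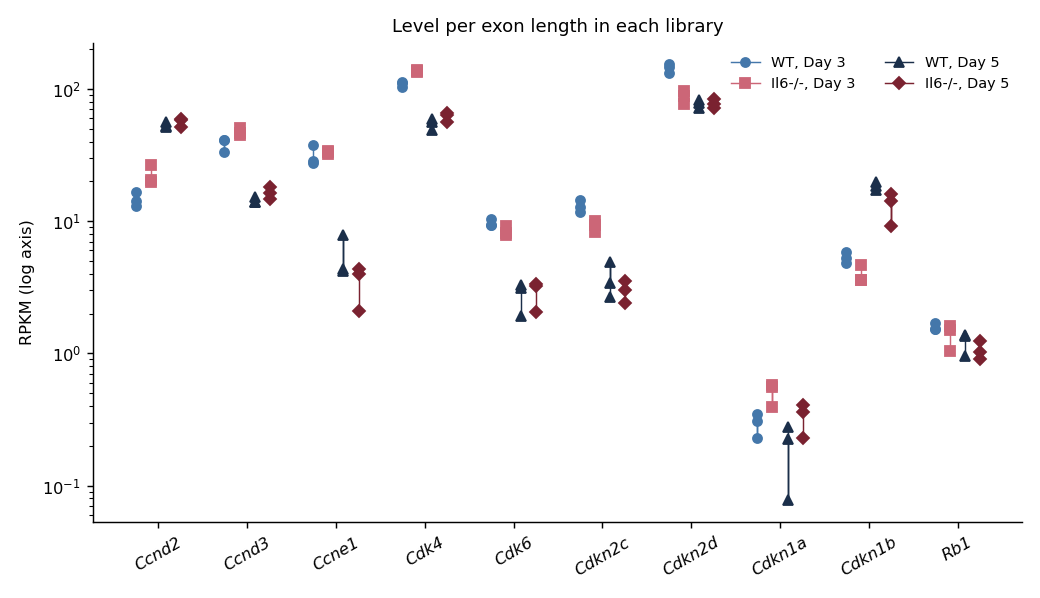
RPKM (vertical log axis) of the 10 genes in each library, with 1 marker shape per group and a line from the lowest to the highest library. Cdkn2d and Cdk4 lie highest in most groups, Ccnd2 and Cdkn1b rise from Day 3 to Day 5, and Cdkn1a lies below 1 RPKM throughout.

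The 4 inhibitors together summed to 162 ± 10.5 RPKM (SD, n = 3) in WT Day 3 and to 101 ± 11 in Il6-/- Day 3, and to 99.9 ± 5.75 and 93.6 ± 3.06 on Day 5. Cdkn2d dominated this sum, with 88.5% ± 1.26 in WT Day 3, 86.4% ± 0.466 in Il6-/- Day 3, 77.7% ± 1.56 in WT Day 5 and 82.3% ± 3.72 in Il6-/- Day 5. The share of Cdkn1b went from 3.29% ± 0.236 to 18.5% ± 2.05 in WT and from 3.91% ± 0.358 to 14.2% ± 4.22 in Il6-/- libraries. These sums count RNA per exon length and not protein, and the shares depend on the exon unions used. Cdkn2d had the shortest union of the 4, 1662 bases beside 4552 for Cdkn1b. Sums and shares are given as description without a test.

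Another 11 lists of cell cycle genes held 83 genes, of which 79 could be tested, and the plot of the lists shows them all. On Day 3, 4 were higher and 6 lower in Il6-/- recipients, on Day 5, 2 were higher and 4 lower, and over all 79 the median log2 difference was 0.03 and 0.18. With the replicate block 30 were higher and 6 lower on Day 5. The shares over all genes belong beside these counts and those of the single lists below. They were 7.52% higher and 6.19% lower on Day 3, and 1.27% and 3.35% on Day 5. With the block they were 5.43% and 6.3% on Day 5. From Day 3 to Day 5 they were 29.5% higher and 27.1% lower in WT, and 30.4% and 30.1% in Il6-/- recipients. The Day 3 counts over all 79 lay near these shares. The nearest relatives of the members came first. Rbl2 (p130), the pocket protein of resting cells and a relative of Rb1, fell from 94.6 ± 3.75 CPM in WT Day 3 to 59.3 ± 2.86 in Il6-/- Day 3 (log2 -0.67 ± 0.09, adjusted p = 2.4e-04). On Day 5 it stood at 81.4 ± 3.96 and 86.6 ± 10.2 CPM, and its genotype difference changed between days by -0.76 ± 0.13 (adjusted p = 0.0055). The sign was that of Cdkn2d, whose own difference was -0.70, but the pattern was not the same. Rbl2 stood apart by a low level in Il6-/- Day 3, and Cdkn2d by a high level in WT Day 3. From Day 3 to Day 5 Rbl2 changed by -0.22 in WT (edgeR adjusted p = 0.048). In Il6-/- recipients it rose by 0.55 (edgeR adjusted p = 8.9e-05), where Cdkn2d gave -0.18. Rbl1 (p107), the third pocket protein, gave 0.03 on Day 3 or 0.18 on Day 5 and passed neither test.

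Of 10 E2F and DP genes, the transcription factors that the pocket proteins hold, E2f3 was higher (23.4 ± 3.88 against 33.3 ± 1.62 CPM, log2 0.51, adjusted p = 0.043) and E2f2 lower (101 ± 14.4 against 66.5 ± 4.9 CPM, log2 -0.60, adjusted p = 0.0082) in Il6-/- recipients on Day 3. The E2f2 difference also changed between days (-0.88 ± 0.19, adjusted p = 0.02). On Day 5 E2f5 was lower (log2 -1.35 ± 0.26, adjusted p = 0.009), and with the replicate block 2 of the 10 were higher and 2 lower. Of the 3 genes of the CDK-activating kinase, Cdk7 and its cyclin Ccnh were higher on Day 3, by 0.25 and 0.27 on the log2 scale (adjusted p = 0.031 and 0.043).

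The 16 E2F target genes of S phase entry and the 8 mitosis genes bear on whether the cells were dividing. On Day 3, 0 of 16 and 0 of 8 were called by edgeR, DESeq2 or limma-voom between genotypes, with 1 and 0 at an unadjusted p under 0.05, and the medians were 0.13 and -0.03 on the log2 scale. All 16 S phase genes were positive on Day 3 too (0.05 to 0.31), whereas 3 mitosis genes were positive and 5 negative. With the replicate block 3 of 16 were called on Day 3, all higher in Il6-/- recipients, and 0 of 8. Over all 13570 genes that fit called 2658 on Day 3. On Day 5 all 16 and all 8 had positive values (medians 0.61 and 0.75) and all were under an unadjusted p of 0.05, but only Cdc6, a helicase loader, was called (10.4 ± 4.07 against 22.5 ± 7.88 CPM, log2 1.11 ± 0.25, adjusted p = 0.021). DESeq2 called 9 of 16 and 2 of 8, limma-voom 1 of 16 and 0 of 8, and edgeR with the replicate block 16 of 16 and 8 of 8, all higher in Il6-/- recipients. Over all 13570 genes the Day 5 calls were 1127 with DESeq2, 503 with limma-voom and 1592 with the block. An unadjusted p under 0.05 was common too, as Cdk4 at 0.041 (edgeR) ranked 2469 by p on Day 5. The change of the genotype difference between days was called for 0 of 16 and 0 of 8 by edgeR, DESeq2 or limma-voom. With the block it was called for 10 of 16 and 8 of 8, beside 1564 of all 13570 genes. Ccne1, itself an E2F target, had the opposite sign on Day 5. From Day 3 to Day 5 all 16 and all 8 fell in both genotypes, with medians of -2.56 and -3.01 in WT and -2.23 and -2.33 in Il6-/- recipients, beside 0.09 over all genes. Pcna, the DNA polymerase clamp, fell from 513 ± 15.7 to 142 ± 11.7 CPM in WT, and Top2a, a mitotic topoisomerase, from 851 ± 43.6 to 113 ± 23.6 CPM. Cdk2, Ccne2 and Ccna2, the other kinase and cyclins of this step, fell by 1.86, 2.68 and 3.42 on the log2 scale in WT.

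**Figure D5:**
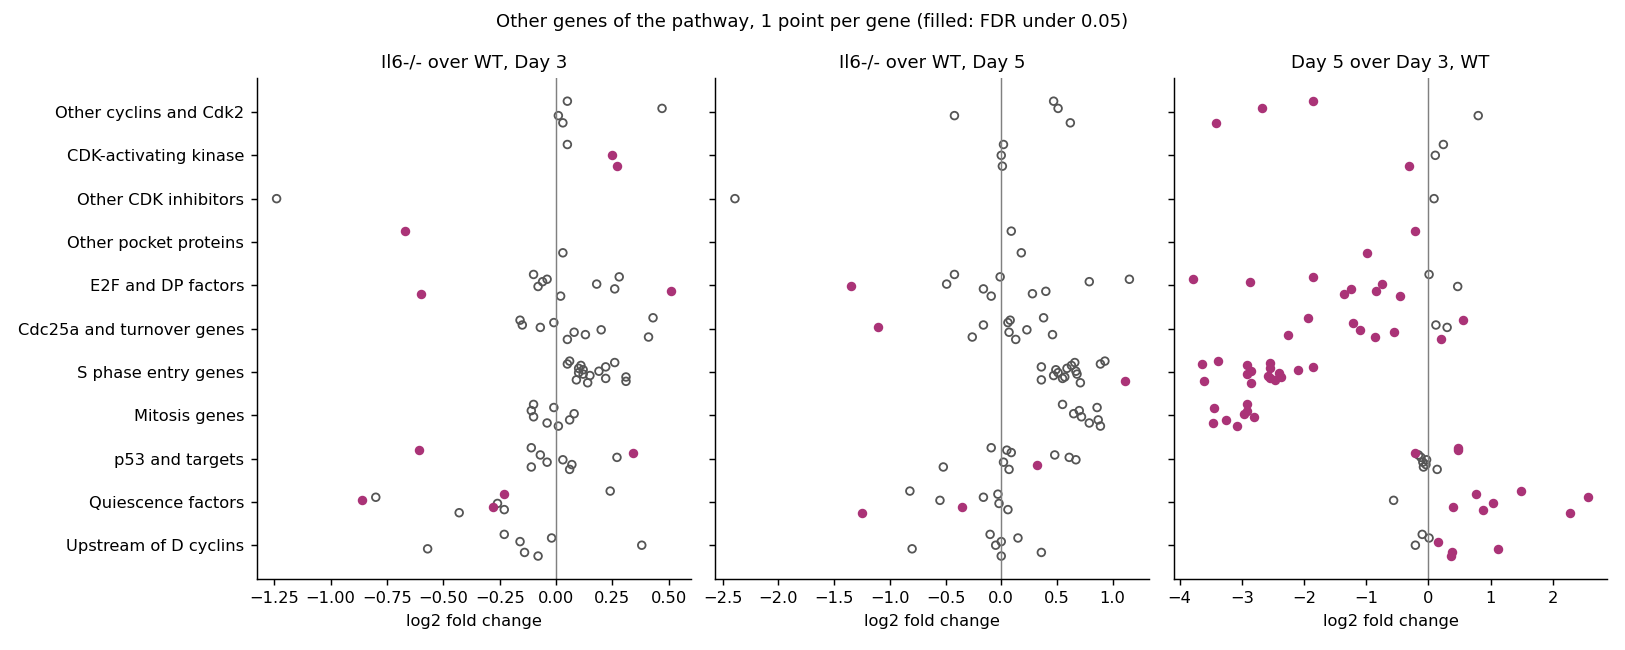
Log2 fold change (horizontal axes, which differ in range) of the 79 tested genes of 11 lists, 1 point per gene, in 3 comparisons, with filled points where the edgeR adjusted p was under 0.05. The 16 S phase entry genes and 8 mitosis genes lie to the right of 0 on Day 5 with 1 filled point, and far to the left in the comparison of days in WT recipients.

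Quiescence factors, genes that hold T cells at rest, went the other way. Of 8, 6 rose from Day 3 to Day 5 in Il6-/- recipients and 7 in WT, among them Btg1, an antiproliferative gene (166 ± 28.9 to 805 ± 222 CPM). In Il6-/- recipients 3 of 8 were lower on Day 3 (Slfn2 by -0.23, Foxo1 by -0.28 and Klf2 by -0.86 on the log2 scale, adjusted p = 0.026, 0.041 and 0.047). On Day 5, 2 of 8 were lower, Btg1 (805 ± 222 against 338 ± 119 CPM, log2 -1.25 ± 0.22, adjusted p = 0.0052) and Foxo1, a transcription factor known to activate Cdkn1b (log2 -0.35 ± 0.09, adjusted p = 0.029), and 3 of 8 with the replicate block.

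Of 10 genes for activation and turnover of these proteins, 2 were higher and 6 lower on Day 5 than on Day 3 in WT. Rnf123, a ligase for p27, rose by 0.55 and Cks1b, a cofactor of p27 degradation, fell by 2.25 on the log2 scale. Between genotypes Fbxo4, an F-box gene studied for cyclin D1 turnover, was lower in Il6-/- recipients on Day 5 (16.8 ± 4.4 against 7.77 ± 1.09 CPM, log2 -1.11 ± 0.19, adjusted p = 0.0047). Of 10 tested genes of p53 and its targets, Trp53 itself was higher (176 ± 2.84 against 223 ± 4.5 CPM, log2 0.34, adjusted p = 0.0044) and Trp53inp1 lower (log2 -0.61, adjusted p = 0.0068) on Day 3, and Ccng1 was higher on Day 5 (log2 0.32, adjusted p = 0.024). Eda2r had 0 counts in every library.

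Of 7 tested genes upstream of the D-type cyclins (MYC partners and STAT factors), edgeR called 0 between genotypes on either day, with 3 on Day 3 and 2 on Day 5 at an unadjusted p under 0.05. DESeq2 called 1 on each day and limma-voom 1 on Day 3. Over all 13570 genes DESeq2 called 2237 on Day 3 and 1127 on Day 5, and limma-voom 1895 on Day 3. Myc gave log2 0.38 ± 0.13 on Day 3 (adjusted p = 0.077) and -0.05 on Day 5, and in Il6-/- recipients it fell from 74.7 ± 8.95 to 48.1 ± 7.35 CPM between days (log2 -0.64 ± 0.13, adjusted p = 8.1e-04). Mycn was not testable, at 0 to 11 counts. Cdkn1c (p57), the last of the inhibitors, was tested and gave -1.24 and -2.39 on Day 3 and Day 5, neither called.

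The genes whose level ran most like each member over the 12 libraries were found by Pearson's r of log2 CPM, which largely follows the day. Ccnd2 ran with Sp110 (r = 0.985) and Bcl2l11 (0.982), Ccnd3 with Nup37 (0.998), Cdk4 with Hnrnpa1 (0.998) and Psmd7 (0.998), and Ccne1 with Chaf1a, a chromatin assembly factor of S phase (0.992). Cdk6 ran with Cenpa, a centromeric histone (0.995), and Cdkn2c with Dck, a nucleoside kinase (0.987). Cdkn1b ran with Ppcdc and with Cd3d, a chain of the T-cell receptor complex (0.994 each). Cdkn2d, whose pattern is a single high group, ran with Ripk3 (0.979) and Emp1 (0.973). Cdkn1a and Rb1 had weaker best partners, at 0.932 with Zik1 and 0.902 with Gm50340.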

How the data were processed

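Poly(A) RNA of 12 libraries was sequenced. Upstream, the authors used Trim Galore 0.4.4 for trimming, STAR 2.5.2a for alignment (build GRCm39) and HTSeq 0.6.1p1, unstranded, for gene counts. The deposited values used here are raw counts per gene. The authors' log2 CPM table was not used. Rows for reads assigned to no gene took 37.8% to 47.5% of each library and were left out. Counts were filtered by edgeR's filterByExpr (minimum count 10, total 15), TMM-scaled and fitted with edgeR 4.0.16 (R 4.3.3), 1 coefficient per group over all 12 libraries, quasi-likelihood F test, Benjamini-Hochberg adjustment over 13570 genes. The script was tested on simulated counts. DESeq2 1.42.0, limma-voom (limma 3.58.1), other scalings and filters, a 2-fold limit, a GC-content offset (12623 of 13570 genes had a value), the comparison's own 6 libraries, the replicate block and leaving out each library were alternatives. A single-value permutation test was not run, since 3 libraries against 3 cannot give a p below 0.1. Exon lengths, positions and overlaps came from GENCODE vM39, in which 32402 of 40840 symbols (79.3%) were found.

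Groups and replicate numbers came from the sample titles. Same-numbered Day 5 libraries of the 2 genotypes deviated together from their group means (r = 0.24, 0.21 and 0.13 over genes). Day 5 libraries of unlike number gave r from -0.18 to -0.03. Deviations from a group mean cancel out within the group for each gene. Positive values for like numbers thus make those for unlike numbers negative on average, and the latter say nothing more on pairing. Same-numbered Day 3 libraries did not deviate together (0.03, 0.06 and 0.03). No source used here says that the numbers mark pairs. The Day 5 pairing is thus drawn from the same values that the block then uses, and whether it is real was not tested. The members and lists were chosen with earlier results of these data known. The rule for naming covered the 10 members, genes under the filter, and the 2 genes most like each member. From each list it covered the 3 genes with the smallest p per direction among those called. Not every gene that the rule covered was printed. Among those left out are Ipo9, the second gene most like Ccnd3, and the day changes of E2f8 and Foxo3. Genes named beyond that rule (Rbl1, Myc on both days, Ccnd1, Cdkn1c) were chosen after their values were seen.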

Additional observations from a re-analysis of the deposited data

Results flagged for a closer look

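The genotype difference of Cdkn2d was not the same on both days. It was -0.71 on Day 3 and -0.01 on Day 5 on the log2 scale, a difference of -0.70 (edgeR adjusted p = 0.011, SE 0.14), and no Il6-/- Day 3 library reached the lowest WT Day 3 library. In the same Day 3 comparison the summed CD4 T-cell markers were 3880 to 4390 CPM in WT and 3550 to 3650 CPM in Il6-/- libraries, and the regulatory T-cell markers 73.8 to 82.5 and 50.5 to 63 CPM, while Klrb1c, of the CD8 T and NK list, was 3.75 to 5.58 and 18.2 to 26.4 CPM. Of the 7 CD4 T-cell markers 2 were called lower in that comparison. By range Cd28 (452 to 466 in WT and 297 to 379 CPM in Il6-/- libraries), Lat (622 to 670 and 447 to 522), Cd3d and Cd3g lay lower. Cd3e and Cd4 overlapped, and Cd44 lay higher in Il6-/- libraries (115 to 124 and 128 to 134 CPM). The part of these markers in the Cdkn2d difference was not tested.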

How the results depend on the processing

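Over 1090 alternative fits of a member, 1005 kept direction and side of the threshold, 13 lost a call, 32 gained one and 40 changed sign, the last all for values that were not called. The members called on Day 3 were 4, or 7 with the comparison's own 6 libraries, 0 at 2-fold and 2 to 6 with 1 library left out (2 without WT Day 3 replicate 2 or Il6-/- Day 3 replicate 1, 6 without Il6-/- Day 5 replicate 2). On Day 5 they were 0, or 2 with no filter or with the replicate block and 0 to 1 with 1 library left out. For the interaction they were 1, or 3 with no filter or the replicate block, 2 with DESeq2 and 0 at 2-fold. The calls over all genes moved as well. On Day 3 they were 1861, or 2738 with those 6 libraries, and 942, 1029 and 2042 without the libraries named above, in turn. On Day 5 they were 626, or 1397 with no filter and 1592 with the block. For the interaction they were 668, or 1300 with no filter, 1564 with the block and 1136 with DESeq2. Same-numbered samples are known to share only a number, on Day 5 too, where the pairing was drawn from the values. The block brought in Cdkn2c on Day 3 (adjusted p = 0.005) and Rb1 in both day comparisons. In the interaction it brought in Ccnd2 (0.045) and Ccne1 (0.021). Signs changed on Day 5 for Cdkn2d (0.02 with RLE or DESeq2, 0.04 with library size, 0.01 with the GC offset, -0.06 to 0.04 with 1 library left out) and for Cdk6 (-0.16 to 0.25 with 1 left out). In the interaction they changed for Cdkn1a (-0.0034 with upper-quartile, -0.08 with library size, -0.10 with limma-voom, -0.04 with the block, -0.32 to 0.39 with 1 left out), Cdkn1b (-0.04 with library size, -0.21 to 0.23 with 1 left out) and Rb1 (-0.01 with RLE, DESeq2 or the block, -0.02 with upper-quartile or GC, -0.08 with library size, -0.0014 with limma-voom, -0.10 to 0.18 with 1 left out). Cdkn2d between days in Il6-/- recipients became 0.05 with upper-quartile scaling, which moved the median of all genes by 0.196 in WT and 0.229 in Il6-/- day comparisons (0.151 in the latter with library size). The causes were not tested. Cdkn1a had the fewest reads, and deeper or shallower counts were not tried.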
